A study of Arabidopsis thaliana with 8 samples.

Results

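A group of 7 genes of the Arabidopsis response to cold and dehydration is described here across brassinosteroid treatment, heat and recovery. It holds COR15A (AT2G42540), LTI78 (AT5G52310), RD20 (AT2G33380), COR47 (AT1G20440), ERD10 (AT1G20450), ERD14 (AT1G76180) and the late embryogenesis abundant (LEA) gene AT3G02480. The genes were found by their locus numbers in the authors' deposited comparison tables, and all 7 were found, out of 692 loci that those tables pair with a single probe set and 22746 probe sets tested on the array. Above-medium shoot tissue of Columbia seedlings was profiled on the Affymetrix ATH1 array. One arm had grown for 21 days on medium with 1 µM 24-epibrassinolide (EBR), a brassinosteroid, and the control arm on medium with 0.01% ethanol. Each arm was sampled unstressed (0 h), at 1 h and at 3 h of heat (43 °C), and once more after the full heat treatment and a recovery of 6 h at 22 °C. Both arms therefore share the heat and recovery regime, and EBR was present for the whole of growth rather than applied as a pulse. Tissue of at least 30 seedlings was pooled per treatment, and each of the 8 groups has 1 deposited sample, which stands for 3 biological replicate arrays.

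Freezing and drought both draw water out of plant cells, and plants answer with proteins that protect membranes and other proteins as the cell dries. Most of the genes described here are switched on through CBF/DREB transcription factors, through the drought hormone abscisic acid, or through both. Brassinosteroids are growth hormones that are also known to raise tolerance of heat and cold when supplied from outside. COR15A encodes a LEA protein of the chloroplast stroma that stabilises chloroplast membranes in freezing. LTI78, also called RD29A, encodes a very hydrophilic protein, and its promoter is a standard reporter of cold, drought and abscisic acid signalling. RD20 encodes a caleosin, a calcium-binding protein of lipid bodies. AT3G02480 encodes a small LEA protein. COR47, ERD10 and ERD14 encode acidic dehydrins, LEA proteins that bind membranes and, for ERD10 and ERD14, keep other proteins from aggregating in vitro.

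In the TAIR10.1 annotation of RefSeq, COR47, ERD10 and ERD14 lie on chromosome 1, COR15A and RD20 on chromosome 2, AT3G02480 on chromosome 3 and LTI78 on chromosome 5. COR47 and ERD10 are immediate neighbours. COR15A lies beside its close relative COR15B, and LTI78 beside LTI65, also called RD29B. The authors' deposited tables list neither COR15B nor LTI65, and how far the COR15A probe set also binds COR15B RNA was not tested.

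The deposited data come in 2 forms, which carry different information. A value table covers the whole array at all 4 stages with 1 linear value per probe set and group, read here as a ratio to the control of the same stage. The authors' comparison tables cover 0 h, 1 h and 3 h only, with mean signal intensities and normalized log2 means for the probe sets that passed their own test of treatment. All probe sets in them passed the authors' test for a treatment effect, so the presence of all 7 genes there is not independent evidence of a direction. The tables of EBR against control add a threshold of 2-fold at their own stage, and list 6 of the 7 genes at 0 h, 4 at 1 h and 4 at 3 h. The heat table asks for 2-fold between unstressed control shoots and at least 1 other condition, and lists all 7. ERD14 is listed in the heat table alone. Each group has a single deposited value per stage, which therefore carries no error and no p. The ratios carry no expression level, so the shoot label was not checked against tissue markers, and fewer cells of one type cannot be told apart from less RNA per cell. In the array's 4 pairs of 3′ and 5′ actin and GAPDH control probe sets, the 3′ to 5′ log2 ratio in EBR shoots minus that in control shoots was -0.15 to 0.25 at 0 h, 0.29 to 0.57 at 1 h, -0.30 to 0.06 at 3 h and -0.47 to -0.08 at recovery.

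In unstressed shoots all 7 genes were higher with EBR, by 2.04-fold for ERD14 to 10.5-fold for AT3G02480 in the value table. All 7 were at least 2-fold higher, a level that 0.95% of all probe sets and 16.6% of probe sets with a named locus reached. ERD14 lay just past that line, and it was under it, leaving 6 of 7, with quantile-normalized ratios (0.95 on the log2 scale), with the EBR column alone (0.997) and in the authors' deposited table (0.996). The median log2 ratio of the 7 genes was 1.53, against 0.33 for the named loci and -0.04 for all probe sets. The authors' 2-fold filter on EBR against control at 0 h had already picked 6 of the 7 genes. The count past 2-fold and this median are therefore a description, not independent evidence.

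Among the LEA, LTI and caleosin genes, COR15A gave value-table ratios of 3.21, 3.54, 2.68 and 1.11 in EBR shoots at 0 h, 1 h, 3 h and recovery, against 0.902, 0.980, 0.895 and 0.991 in control shoots. LTI78 gave 2.86, 2.24, 3.48 and 0.990 in EBR shoots, against 0.992, 1.00, 1.00 and 0.995 in control shoots. The EBR value of both genes was more than 2-fold the control value at 0 h, 1 h and 3 h and close to it at recovery. RD20 gave 3.08, 2.42, 2.83 and 1.10 in EBR shoots, against 0.962, 0.938, 0.976 and 0.8998 in control shoots. AT3G02480 gave 10.5, 5.02, 8.92 and 1.15 in EBR shoots, against 0.996, 0.996, 0.999 and 0.956 in control shoots. AT3G02480 had the highest EBR value of the 7 genes at every stage, and at 0 h its EBR over control ratio ranked 4 among the 22746 probe sets.

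The dehydrins differed less. COR47 gave 2.08, 1.19, 1.55 and 1.02 in EBR shoots, against 0.957, 0.996, 0.997 and 0.995 in control shoots. ERD10 gave 2.69, 1.44, 1.71 and 1.05 in EBR shoots, against 0.997, 0.993, 1.00 and 0.998 in control shoots. ERD14 gave 2.00, 1.56, 1.64 and 1.03 in EBR shoots, against 0.978, 0.979, 0.990 and 0.989 in control shoots. For each dehydrin the value in EBR shoots was highest at 0 h, lower at 1 h, slightly above that at 3 h, and close to the control value at recovery.

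**Figure D1:**
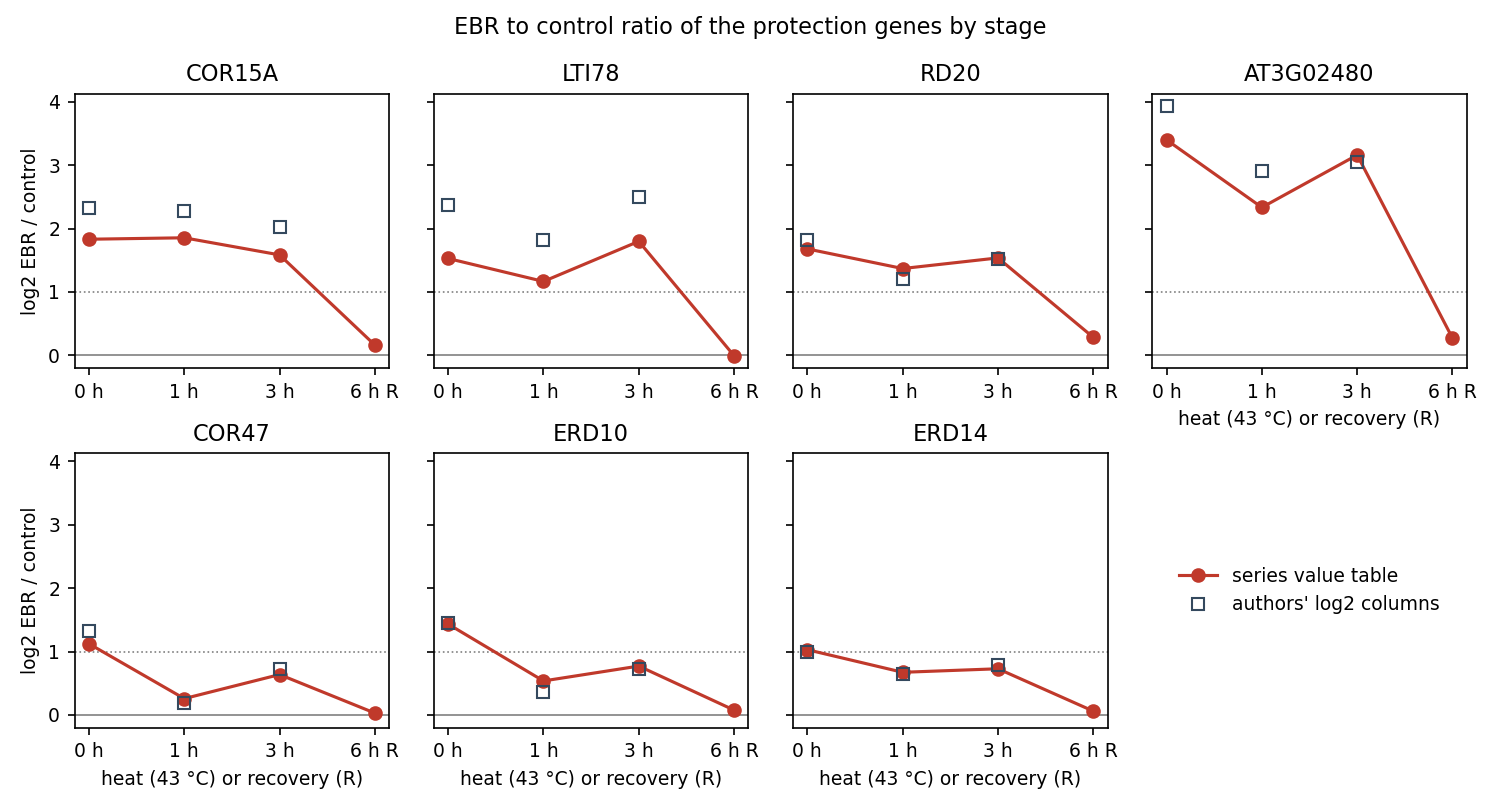
The log2 ratio of EBR over control shoots (vertical axis) is plotted at 0 h, 1 h, 3 h and 6 h recovery for each of the 7 genes, as filled points from the value table and open squares from the authors' log2 means, without error bars, and the dotted line marks 2-fold. In the value table at 0 h the 7 genes lie between 1.03 for ERD14 and 3.40 for AT3G02480, and at recovery they lie between -0.01 for LTI78 and 0.28 for RD20.

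The authors' mean signal intensities show what these ratios rest on. In the authors' deposited table, COR15A had mean signals of 1636 at 0 h, 1310 at 1 h and 978 at 3 h in EBR shoots, against 329, 306 and 277 in control shoots. The authors' mean signal of RD20 was 1087, 841 and 929 in EBR shoots at the same times, against 309.9, 385 and 334 in control shoots. At each of these times the EBR signal of both genes exceeded the highest control signal of the same gene. The authors' mean signal of LTI78 was 372, 291 and 325 in EBR shoots, against 62.9, 79.1 and 57.2 in control shoots. That of AT3G02480 was 248, 202 and 169 in EBR shoots, against 15.4, 25.2 and 30.7 in control shoots. The control signal of AT3G02480 was the lowest of the 4, the files used here give no background level for it, and its large ratio divides by that low signal. At 0 h, the only stage for which they are listed, the authors' mean signal of COR47 was 2062 in EBR shoots and 886 in control shoots, and that of ERD10 was 965 and 354. ERD14 has no signal in the authors' deposited tables, because it is listed only in the table of heat changes, which gives normalized log2 means.

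**Figure D2:**
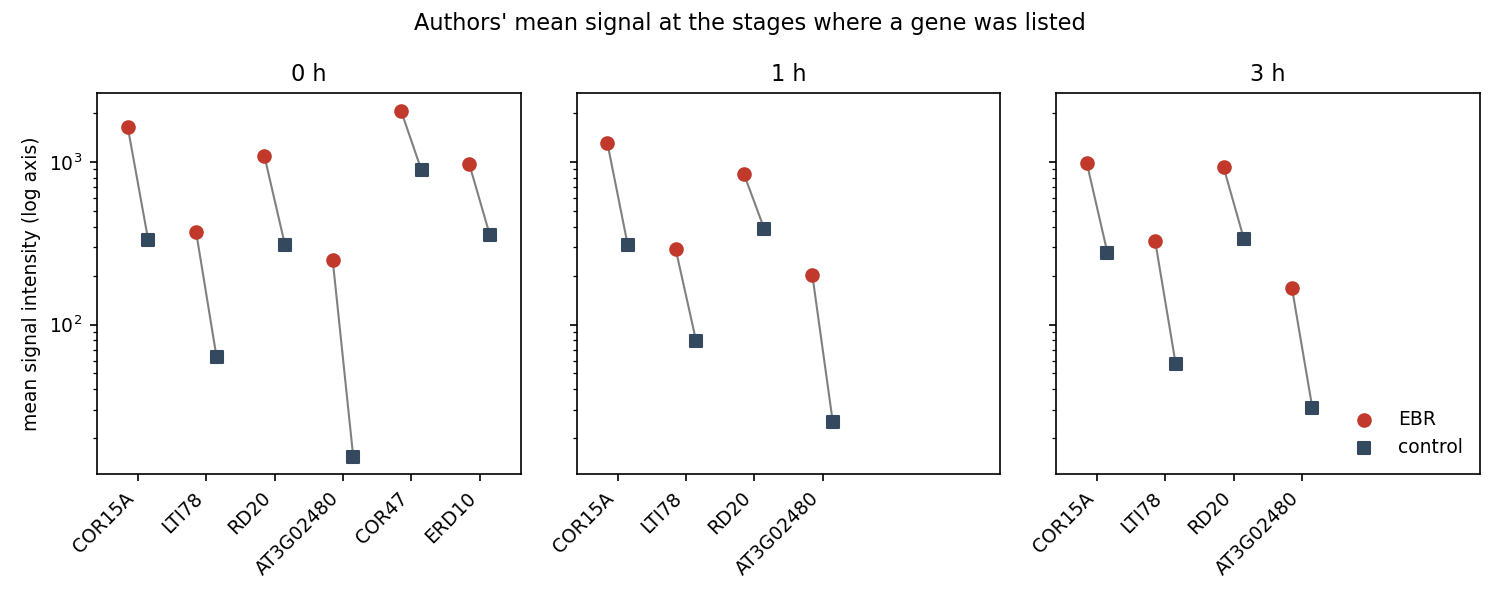
The authors' mean signal intensity (log axis) is shown for EBR and control shoots at 0 h, 1 h and 3 h for COR15A, LTI78, RD20 and AT3G02480, and at 0 h also for COR47 and ERD10, where a gene was listed. Every EBR point lies above the control point of its stage, from 248 against 15.4 for AT3G02480 at 0 h to 841 against 385 for RD20 at 1 h.

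The authors' normalized log2 means gave larger EBR effects than the value table for some genes. For LTI78 the authors' deposited table gave 5.20-fold at 0 h, 3.53-fold at 1 h and 5.65-fold at 3 h, where the value table gave 2.88-, 2.24- and 3.48-fold. For COR15A the authors' deposited table gave 4.996-, 4.85- and 4.06-fold, where the value table gave 3.56-, 3.62- and 3.00-fold. For AT3G02480 the authors' deposited table gave 15.3-, 7.51- and 8.25-fold, where the value table gave 10.5-, 5.04- and 8.94-fold. The direction was the same in both sources for every gene and stage. The size of the EBR effect on LTI78, COR15A and AT3G02480 depends on the source. For AT3G02480 the authors' effect was the larger at 0 h and 1 h and the smaller at 3 h. RD20 and the 3 dehydrins differed by at most 0.20 on the log2 scale between the sources. Over the 708 probe sets of the heat table the median gap between the sources was 0.11, 0.06 and 0.07 at 0 h, 1 h and 3 h.

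The study also asks what heat itself did in each arm. After heat 2 of the 7 genes, the neighbouring dehydrins COR47 and ERD10, were at least 2-fold higher than at 0 h in both arms, and none was 2-fold lower. These changes are differences of the authors' normalized log2 means, which have no error and could not be tested. In the authors' deposited table, COR47 was 2.78-fold higher after 1 h and 3.63-fold higher after 3 h than at 0 h in the EBR arm, against 6.11-fold and 5.49-fold in the control arm. ERD10 was 3.64-fold and 4.39-fold higher in the EBR arm, against 7.72-fold and 7.26-fold in the control arm, by the authors' deposited table. Both dehydrins were thus higher with heat in each arm, and the increase over 0 h was smaller in the EBR arm. On the log2 scale that arm difference is the same quantity as the drop in the EBR over control ratio from 0 h. Of the authors' EBR against control filters, the one at 0 h alone had picked both genes. How far that selection favours a smaller increase in the EBR arm was not tested, so the arm difference is a description. Of the 708 probe sets listed, 11% were at least 2-fold higher after 1 h in the EBR arm and 11.3% in the control arm, and 15% and 10.2% after 3 h. At least 2-fold lower were 24.3% in the EBR arm and 20.5% in the control arm after 1 h, and 27% and 22.3% after 3 h.

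ERD14, the third dehydrin, stayed within 2-fold of its 0 h level in both arms. By the authors' deposited table its log2 change at 1 h and 3 h was 0.05 and 0.29 in the EBR arm, against 0.39 and 0.49 in the control arm. AT3G02480 had log2 changes of -0.50 and -0.17 in the EBR arm, against 0.53 and 0.71 in the control arm, in the authors' deposited table. From the authors' mean signals its change at 3 h in the EBR arm was -0.56. RD20 had log2 changes of -0.37 and -0.23 in the EBR arm, against 0.25 and 0.06 in the control arm, in the same authors' deposited table. For these last 2 genes the arms had opposite signs at both times, a difference that was not tested. It is the same quantity as the change in the authors' EBR over control log2 ratio from 0 h. The authors' filters had picked both genes for that ratio at 0 h, 1 h and 3 h.

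COR15A and LTI78 also stayed within 2-fold of their 0 h level. In the authors' deposited table COR15A changed on the log2 scale by -0.24 at 1 h and -0.71 at 3 h in the EBR arm, against -0.19 and -0.41 in the control arm. LTI78 changed by -0.27 and -0.21 in the EBR arm, against 0.29 and -0.33 in the control arm, by the authors' deposited table. The median change of all listed probe sets was itself below 0, at -0.28 and -0.33 at 1 h and 3 h in the EBR arm and -0.20 and -0.20 in the control arm. Taken relative to that median, 6 of the 28 changes of the 7 genes against 0 h turned sign, none of them larger than 0.27 on the log2 scale: COR15A at 1 h in both arms, LTI78 at 1 h and 3 h, and RD20 and AT3G02480 at 3 h, the last 4 in the EBR arm. COR47 and ERD10 stayed at least 2-fold higher in both arms on that scale. Between 1 h and 3 h no gene of the 7 moved by 2-fold in either arm. Of the listed probe sets 0.706% were 2-fold higher and 1.55% lower between these times in the EBR arm, against 0% and 1.41% in the control arm.

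**Figure D3:**
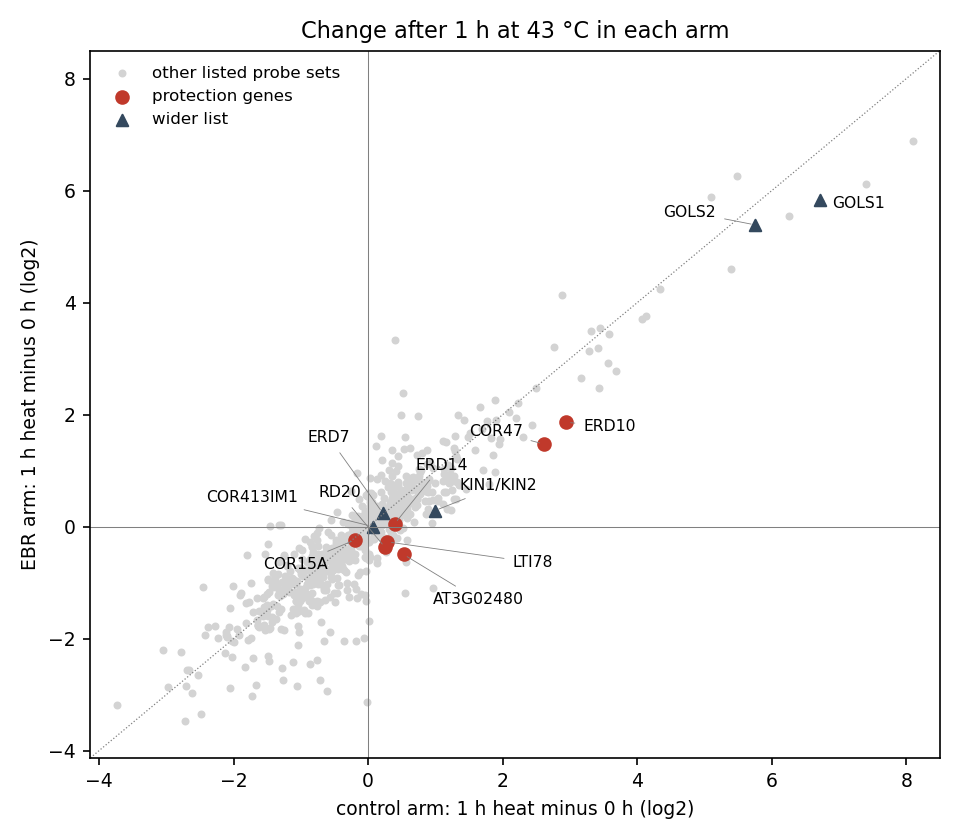
Each point is a probe set of the authors' table, placed by its log2 change after 1 h at 43 °C in the control arm (horizontal axis) and in the EBR arm (vertical axis), with red circles for the 7 genes, triangles for the wider list described further on, and a dotted line at equal change. COR47 at 1.48 and ERD10 at 1.86 in the EBR arm, against 2.61 and 2.95 in the control arm, lie to the right of the other 5 genes and below the line.

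Set against a single baseline, unstressed control shoots, the 7 genes had 2 orders of level in the authors' deposited table. By that authors' deposited table COR47 was 2.49-fold above that baseline at 0 h in EBR shoots. After 1 h of heat it was 6.93-fold above it in EBR shoots and 6.11-fold in control shoots, and after 3 h 9.05-fold in EBR shoots and 5.49-fold in control shoots, by the authors' deposited table. ERD10 stood at 2.74-fold at 0 h in EBR shoots, at 9.97-fold in EBR shoots and 7.72-fold in control shoots after 1 h, and at 12.04-fold in EBR shoots and 7.26-fold in control shoots after 3 h, in the authors' deposited table. For these 2 dehydrins heat without EBR gave higher levels than EBR without heat. The other 5 genes had the opposite order. AT3G02480 was 15.3-, 10.8- and 13.5-fold above the baseline in EBR shoots at 0 h, 1 h and 3 h, against 1.44-fold at 1 h and 1.64-fold at 3 h in control shoots, in the authors' deposited table. LTI78 was 5.20-, 4.31- and 4.49-fold above it in EBR shoots, and in control shoots it differed from it by 0.29 and -0.33 on the log2 scale at 1 h and 3 h, by the authors' deposited table. ERD14 had the smallest folds over that baseline of the 7 genes in EBR shoots in the authors' deposited table, at 1.99-, 2.07- and 2.43-fold at 0 h, 1 h and 3 h, against 1.31- and 1.41-fold in control shoots at 1 h and 3 h.

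**Figure D4:**
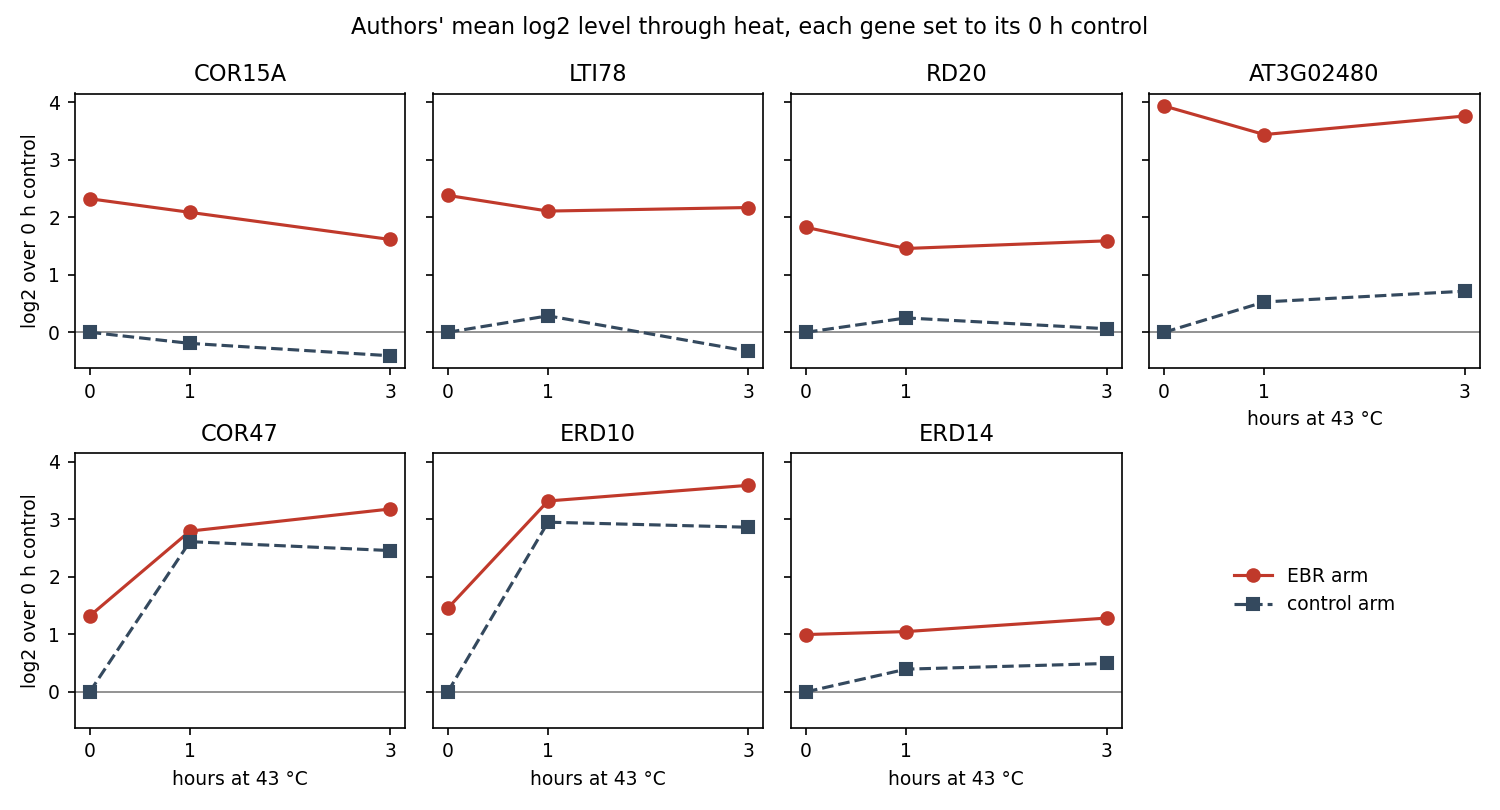
The authors' normalized log2 mean of each of the 7 genes, minus that of unstressed control shoots, is plotted against hours at 43 °C for EBR and control shoots, without error bars because the table has none. COR47 and ERD10 climb to 3.18 and 3.59 at 3 h in EBR shoots. In control shoots they reach 2.61 and 2.95 at 1 h and stand at 2.46 and 2.86 at 3 h. The other genes stay within 2-fold of their own 0 h level in each arm.

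During heat the EBR over control ratio stayed above 1 for all 7 genes. At 1 h, 4 of the 7 genes, COR15A, LTI78, RD20 and AT3G02480, were at least 2-fold higher with EBR in the value table, where 0.677% of all probe sets and 13.3% of named ones were. At 3 h the same 4 genes were at least 2-fold higher, against a background of 0.818% and 14.2%. These 4 are the genes that the authors' 2-fold filters had already picked at 1 h and at 3 h, so both counts are a description. The ratios of the dehydrins at 1 h were 1.20-fold for COR47, 1.45-fold for ERD10 and 1.59-fold for ERD14. At 3 h they were 1.55-, 1.71- and 1.66-fold. The 3′ to 5′ control ratios at 1 h, given above, were higher in EBR shoots in 4 of 4 pairs, and their part in the values at 1 h was not tested.

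At recovery the EBR over control ratio of these genes was near 1. None of the 7 was 2-fold higher with EBR, while 0.585% of all probe sets and 7.8% of named ones were, and the median log2 ratio of the 7 was 0.08, against 0.11 for named loci and -0.03 for all probe sets. The recovery log2 ratio was 0.16 for COR15A, -0.01 for LTI78, 0.28 for RD20, 0.27 for AT3G02480, 0.03 for COR47, 0.08 for ERD10 and 0.06 for ERD14. As a share of the gene's own mean log2 ratio at 0 h, 1 h and 3 h, that was 18.6% for RD20 and less for each of the others.

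A limma contrast of the recovery ratio with the mean of the other 3 stages, with Benjamini-Hochberg adjustment over all probe sets, called 4 of the 7 genes lower at recovery and none higher. Of all probe sets 0.11% were lower by this test, and of those with a named locus 1.3%. These 4 are the genes that the authors' 2-fold filters picked at 0 h, 1 h and 3 h alike, while recovery was in no filter. How far that selection favours a lower ratio at recovery was not tested. The difference was -2.69 for AT3G02480 on the log2 scale (SE 0.35, limma adjusted p 0.0366), -1.59 for COR15A (SE 0.16, adjusted p 0.0273), -1.50 for LTI78 (SE 0.23, adjusted p 0.0452) and -1.24 for RD20 (SE 0.17, adjusted p 0.0401). All 4 adjusted p-values lay close to the threshold of 0.05, and with each stage ratio centred on its median over all probe sets COR15A alone passed (limma adjusted p 0.0337), with LTI78 at 0.0603 and RD20 and AT3G02480 at 0.0501 each. The dehydrins did not pass. Their differences were -0.64 for COR47 (95% interval -1.30 to 0.01, limma adjusted p 0.385), -0.84 for ERD10 (-1.53 to -0.15, adjusted p 0.281) and -0.75 for ERD14 (-1.16 to -0.34, adjusted p 0.125), so these intervals leave room for a drop about as large as their ratio at 0 h. Recovery enters with 1 ratio, and the error comes from the spread of the other 3 stages. The 3′ to 5′ control ratios were lower in EBR shoots at recovery in 4 of 4 pairs, and their part in this difference was not tested. The authors' comparison tables hold no recovery stage, so the recovery values rest on the value table alone.

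**Figure D5:**
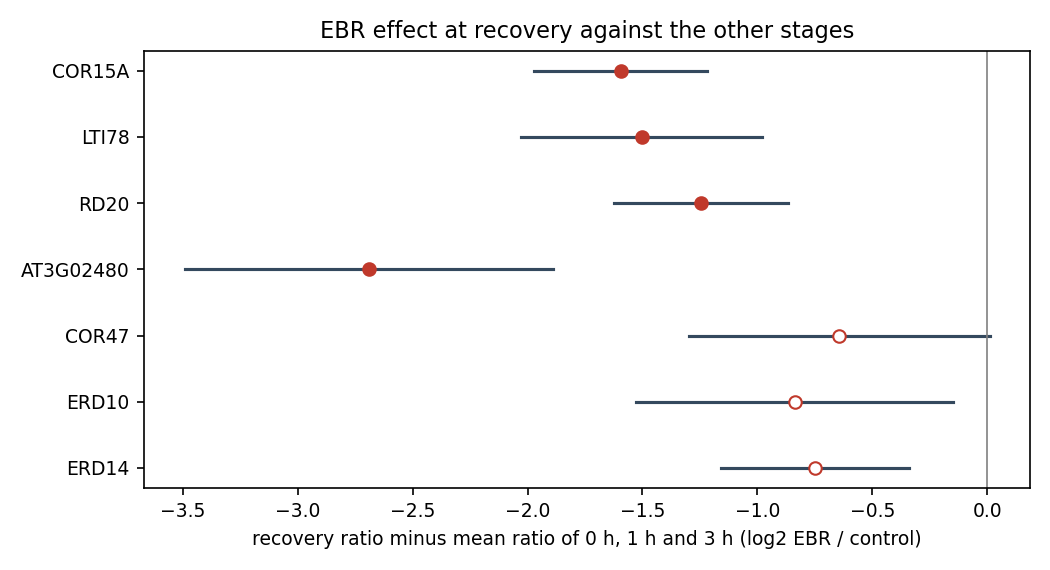
For each gene the log2 EBR over control ratio at recovery minus the mean ratio of 0 h, 1 h and 3 h is shown with its 95% interval from limma, with filled points for the 4 genes past an adjusted p of 0.05 and open points for the others. The 7 estimates run from -2.69 for AT3G02480 to -0.64 for COR47, and only the COR47 interval reaches 0.

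Over all 4 stages together, 5 of the 7 genes rose with EBR in the limma test of the stage ratios against 0, where 5.06% of all probe sets and 44.4% of those with a named locus rose. The share among these genes is thus to be read against named loci that were themselves selected for an EBR effect. The authors' filters used the values at 0 h, 1 h and 3 h, which supply every ratio of this test except that at recovery. The count and its p-values are therefore a description, not independent evidence. The mean log2 ratio was 2.29 ± 1.42 for AT3G02480 (SD over 4 stages, limma adjusted p 0.0204), 1.36 ± 0.81 for COR15A (adjusted p 0.0185), 1.22 ± 0.63 for RD20 (adjusted p 0.0125), 1.12 ± 0.80 for LTI78 (adjusted p 0.0325) and 0.62 ± 0.41 for ERD14 (adjusted p 0.0312). ERD10, at 0.70 ± 0.57 (limma adjusted p 0.0513), and COR47, at 0.51 ± 0.48 (adjusted p 0.0866), did not pass. The ratio was above 0 at 4 of 4 stages for 6 of the 7 genes and at 3 of 4 for LTI78. The p measures agreement between stages, not the spread between batches of seedlings. With the recovery ratio left out all 7 passed (limma, background 7.25% of all probe sets and 54.8% of named ones), with adjusted p 0.0182 for COR47, 0.007 for ERD10 and 0.0013 for ERD14. That fit uses only 0 h, 1 h and 3 h, the stages at which the authors' filters picked these genes, so it is not independent evidence. With 0 h, 1 h or 3 h left out and recovery kept, none of the 7 passed, the lowest adjusted p being 0.0526 for RD20.

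A wider list of 78 genes of cold and dehydration response, abscisic acid metabolism and signalling, compatible solutes and caleosins was looked up in the same tables. Of its genes 6 were found, on 5 probe sets, and 72 were not listed. Those 72 include all 7 other dehydrins and all 20 regulators, the CBF and DREB factors among them. A gene is unlisted if none of its probe sets passed the authors' filters, or if the array holds none for it. These cases cannot be told apart here, and no values are given for the unlisted genes. Of the 5 probe sets, 4 rose with EBR over the 4 stages by limma, against the 44.4% of named loci given above, none fell, and 1 was lower at recovery, against 1.3% of named loci. They were found because they sit in tables selected for a treatment effect, so these counts are a description. Their median mean log2 ratio was 0.80, against 1.12 for the 7 genes described here and 0.33 for named loci.

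KIN1 and KIN2, which encode small hydrophilic cold-induced proteins, share 1 probe set and cannot be told apart on it. Its log2 ratios were 1.66, 1.51, 1.35 and 0.07 at the 4 stages, with a mean of 1.15 (SE 0.24, limma adjusted p 0.0234) and a recovery difference of -1.44 (adjusted p 0.0286). COR413IM1, which encodes a protein of the chloroplast inner envelope, had log2 ratios of 1.87, 2.01, 2.08 and 1.08 (mean 1.76, SE 0.16, limma adjusted p 0.0015). Its recovery difference of -0.91 did not pass (limma adjusted p 0.053). ERD7, a gene first described as early responsive to dehydration, had ratios of 0.72, 0.89, 0.60 and 1.00, highest at recovery (mean 0.80, SE 0.08, limma adjusted p 0.0023).

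Both galactinol synthase genes found, which make the precursor of raffinose sugars, had larger changes with heat than EBR ratios, as had COR47 and ERD10. In the authors' deposited table GOLS1 was higher after 1 h by 5.83 in the EBR arm and 6.72 in the control arm on the log2 scale, and GOLS2 by 5.39 in the EBR arm and 5.75 in the control arm. The EBR log2 ratios of GOLS1 were 0.46, 0.07, 0.23 and -0.14 at the 4 stages (limma adjusted p 0.388), and those of GOLS2 were 0.50, 0.91, 1.10 and 0.06 (adjusted p 0.0386).

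The mean log2 profile of the 7 genes was 1.72, 1.17, 1.46 and 0.13 at 0 h, 1 h, 3 h and recovery. Among the other named loci the profile nearest to it over these 4 stages, by root mean square difference, was that of PLA2A, a phospholipase A gene, at 0.257 on the log2 scale with ratios of 1.39, 1.38, 1.13 and 0.20. YLS2 and the beta-glucosidase gene BGLU18 followed at 0.301 each, then AT2G28400 at 0.309 and the early nodulin-like gene ENODL1 at 0.344. All 5 kept a recovery log2 ratio above the 0.13 of the 7 genes' mean, from 0.20 for PLA2A to 0.80 for ENODL1. They were picked for this likeness, so it is a description without a test.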

How the data were processed

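ATH1 arrays were run on shoots of 8 groups. MAS5 and GCRMA are named per the submitters' processing notes, without version or role, and the sources used here do not say how values of the 3 replicate arrays became 1. The deposited value table holds linear ratio values. Control columns never exceed 1 and have medians near it (0.998 to 0.999). Reading the table as a ratio to the same stage's control is an inference from this. In the authors' deposited tables of comparisons, each condition has a mean intensity and a normalized log2 mean, and each pair a linear fold. Only probe sets at least 2-fold apart in a pair of conditions that the table compares, with a corrected treatment p up to 0.05 in a 2-way analysis of variance, are listed, per the file headers. Fold and log2 difference were checked to be equal in them.

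For 22746 probe sets, 11 array controls excluded, log2 ratios of EBR over control were computed per stage. It was tested with limma 3.58.1 in R 4.3.3 (moderated variances, Benjamini-Hochberg adjustment over all probe sets, threshold 0.05), for the mean of the 4 stages and for recovery against the rest. Heat changes are differences of the authors' deposited log2 means. Alternatives were centring, quantile normalization, the EBR column alone, a robust prior, each stage left out, a filter on low control values, the authors' log2 columns and signals. The text names all 7 genes, every gene of the wider list with 1 probe set, and the 5 most alike profiles. The members and lists were chosen with earlier results of these data known. Symbols come from the RefSeq TAIR10.1 table, which matched all 7 loci. No coordinates are printed, since no genome build is named in the files. Promoter and protein sequences were not analysed here. The labels call the 3 arrays biological replicates, and their number limits precision, but no per-array value was used here, so no SD between them is given.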

Additional observations from a re-analysis of the deposited data

Results flagged for a closer look

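COR15A had 1 stage that stood apart from the other 3 in the value table. Its log2 ratio at recovery was 0.16, against 1.83, 1.85 and 1.58 at 0 h, 1 h and 3 h, and the gap to the nearest stage was 0.841 of the whole range, above Dixon's 95% critical value for 4 values. Chance alone gives such a gap in about 1 in 20 sets of 4 values.

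The EBR effect differed between recovery and the other stages in the limma contrast for AT3G02480 (-2.69), COR15A (-1.59), LTI78 (-1.50) and RD20 (-1.24). These are log2 differences, and these 4 genes are the ones at least 2-fold higher with EBR at 0 h, 1 h and 3 h alike. The authors' 2-fold filters had picked them at those stages, and how far that favours a lower ratio at recovery was not tested. With centred ratios COR15A alone passed, with limma adjusted p of 0.0501 for AT3G02480 and RD20 and 0.0603 for LTI78, and with the robust prior AT3G02480 missed the threshold (0.0536).

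The heat changes of RD20 and AT3G02480 had opposite signs in the arms, and the differences were not tested because the authors' log2 means have no error. Each difference is also the change in the authors' EBR over control log2 ratio from 0 h, so it adds no result beyond those ratios. The authors' 2-fold filters had picked both genes at 0 h, 1 h and 3 h, and how far that shapes the differences was not tested. For AT3G02480 the change in the EBR arm minus that in the control arm was -1.02 at 1 h and -0.89 at 3 h. For RD20 it was -0.62 at 1 h and -0.30 at 3 h. Relative to the median change of all listed probe sets, both genes had the same sign in both arms at 3 h.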

How the results depend on the processing

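Of the 7 genes, 5 rose over the 4 stages. Leaving out 1 stage in turn moved this count between 0 and 7: it was 7 without recovery and 0 without 0 h, 1 h or 3 h. The count of 5 rests largely, and the count without recovery wholly, on the stages at which the authors' filters picked these genes, so both are descriptions. Quantile normalization gave 6, and centring, the EBR column alone and the robust prior gave 5 each. The count lower at recovery was 4, and it was 1 with centred ratios and 3 with the robust prior, where AT3G02480 had a limma adjusted p of 0.0536. The authors' log2 means were tested too, but their probe sets were selected at these same stages, so that count is not given. The count of genes 2-fold higher after heat was unchanged by centring in either arm. Leaving out probe sets with a control value under 0.9541 removed COR15A and RD20, and of the other 5 genes 4 rose. Signals could replace the log2 means for heat changes in COR15A, LTI78, RD20 and AT3G02480 alone. In the EBR arm they gave AT3G02480 -0.26 in place of 0.32 between 1 h and 3 h, and -0.56 in place of -0.17 at 3 h, and in the control arm COR15A -0.25 in place of -0.41 at 3 h. The planned promoter motif and protein comparisons were not run. No paired analysis was possible because each group has 1 deposited sample, so no replicate numbers pair arrays across groups; the limma tests instead use ratios formed within each stage. With 1 deposited value per group at each stage, seedling variation was not measured.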
